A study of Mus musculus with 16 samples.

Results

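Hox genes encode homeodomain transcription factors that give cells of the embryo their position along the head-to-tail axis. Mice carry them in 4 clusters, HoxA to HoxD, and members of equal number in different clusters are paralogues. The members examined were the rows of the count tables whose symbol is Hox, a cluster letter and a number, which gave 39 of 24421 genes: 11 in HoxA (chr6:52155367-52260880, mm10), 10 in HoxB (chr11:96194361-96368253), 9 in HoxC (chr15:102921131-103036852) and 9 in HoxD (chr2:74668310-74765142). RNA was sequenced from intestinal epithelium of wild-type C57BL6/J mice, released with EDTA from a medial piece of the jejunum or the ileum. The groups were P6 jejunum, P6 ileum, P36 jejunum and P36 ileum, where P6 (postnatal day 6) is the suckling period and P36 is after weaning. Every mouse gave both regions, so each group held 4 libraries from the same 4 mice as its partner region, 2 female and 2 male at each age.

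The order of Hox genes within a cluster follows the order in which they are used along the body: low-numbered genes at the 3' end of a cluster are used in the most anterior tissues, and high-numbered genes at the 5' end in posterior ones. In the gut, Hox genes are best known from the mesoderm, while in the endoderm the related ParaHox genes Pdx1, Cdx1 and Cdx2 set regional identity. The comparisons below ask which Hox genes the isolated epithelium held and how they differed between the regions and between the ages.

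Libraries held 12159237 to 25947276 counts, of which 35 to 3085 fell on Hox genes, so a Hox gene was measured from few reads in the jejunum and from up to 1767 in a single ileum library. Levels are given as CPM, the counts of a gene relative to the library total after scaling by trimmed mean of M-values (TMM) factors, with the standard deviation (SD) over 4 mice, and levels are compared between genes only as CPM per kb of exon. In the library of median size, 10 counts correspond to 0.503 CPM. The epithelial genes Epcam and Vil1 lay between 1137 and 2229 CPM and between 751 and 4486 CPM in the 16 libraries. A pair of P6 ileum libraries stood apart. P6 ileum replicate 2 (mouse L42150-1) held genes of muscle and connective tissue: smooth muscle markers summed to 267 CPM against 0.316 to 6.35 CPM in the other 15 libraries, fibroblast markers to 345 CPM against 8.85 to 69.8, and endothelial markers to 53.9 CPM against 1.77 to 10.9. All 9 smooth muscle markers, 8 of 10 fibroblast markers and all 8 endothelial markers were highest there, with Myh11 at 80.3, Acta2 at 61.7, Col1a1 at 26.0, Col3a1 at 105 and Pecam1 at 12.4 CPM. P6 ileum replicate 4 (mouse L42150-2) differed from the other 3 with the GC content of genes. Genes were divided into 5 equal classes by GC content, and log2 CPM was set against the mean of all 4 P6 ileum libraries, replicate 4 included. The median deviation of replicate 4 was 0.69 in class 1 with the lowest GC content, -0.55 in class 4 and -1.41 in class 5. The corresponding values of class 5 were 0.37, 0.53 and 0.58 in P6 ileum replicates 1 to 3, against the same mean that replicate 4 lowers. They lay between -0.13 and 0.13 in the 12 libraries of the other groups. Fibroblast markers were also higher in the other P6 ileum libraries (30.5, 29.3 and 52.4 CPM in replicates 1, 3 and 4) than in the P6 jejunum (8.85 to 23.5 CPM). In the fit of all libraries, replicate 2 included, 8 of the 9 tested ones were called higher in the P6 ileum, beside 14.8% of all tested genes. No fit of these markers without replicate 2 is given. Smooth muscle markers summed to 2.02, 1.63 and 4.26 CPM in P6 ileum replicates 1, 3 and 4, below the 5.31 to 6.35 CPM of the P6 jejunum. The part of fibroblasts in the regional Hox differences was not tested. The main HoxB and HoxD calls that use P6 ileum replicates 2 and 4 are also given without them. In bulk RNA, a larger share of cells of a type and more RNA per cell cannot be told apart.

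Of the 39 Hox genes, 12 passed the filter on low counts and were tested: Hoxb3 to Hoxb9, Hoxd3, Hoxd4, Hoxd8, Hoxa2 and Hoxa3. A further 8 had over 10 counts in total without passing (Hoxa4, Hoxa5, Hoxb2, Hoxc4, Hoxc5, Hoxc6, Hoxc8 and Hoxc9), and 11 had 1 to 10 counts over the 16 libraries (among them Hoxa7, Hoxa9, Hoxb13, Hoxc10, Hoxd9 and Hoxd13). The last 8 had 0 counts in every library, namely Hoxa10, Hoxa13, Hoxb1, Hoxc12, Hoxc13, Hoxd1, Hoxd10 and Hoxd12. A count of 0 allows up to 3 counts, or 0.116 to 0.247 CPM depending on the library, and covers counting error only. A gene was taken as detected in a group at 0.5 CPM or more in each of its 4 libraries. By that measure the P6 jejunum held Hoxa3 and Hoxd4, the P6 ileum held 7 genes (Hoxa3, Hoxb3, Hoxb5, Hoxb6, Hoxb7, Hoxd3 and Hoxd4), the P36 jejunum held 0 and the P36 ileum held 8 (Hoxb3 to Hoxb9 and Hoxd4). Without P6 ileum replicate 4, the P6 ileum held 11. In the P36 jejunum, 20 of the 39 genes were at 0 in all 4 libraries.

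The summed level of the 39 genes followed region. In CPM per kb it was 4.53 ± 1.14 (SD, n = 4) in the P6 jejunum, 23.6 ± 10.9 in the P6 ileum, 1.27 ± 0.341 in the P36 jejunum and 50.6 ± 19.4 in P36 ileum. No jejunum library came above 5.81 and no ileum library below 8.03. The HoxB cluster made up most of the ileal sum, with 17.6 ± 11.1 at P6 and 49.2 ± 19.3 at P36, and its lowest ileal value of 2.32 came from P6 ileum replicate 4. HoxA and HoxD differed less between the regions at P6. HoxA summed to 1.55 ± 0.335 in the P6 jejunum and 1.37 ± 0.209 in P6 ileum, and HoxD to 1.66 ± 1.19 and 3.76 ± 0.566. HoxC stayed at or below 0.261 in 14 libraries and reached 2.27 and 0.929 in P6 ileum replicates 2 and 4. Split by number, genes 9 to 13 summed to at most 0.134 in any jejunum library and to 19.9 ± 7.95 in the P36 ileum, nearly all of it Hoxb9.

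**Figure D1:**
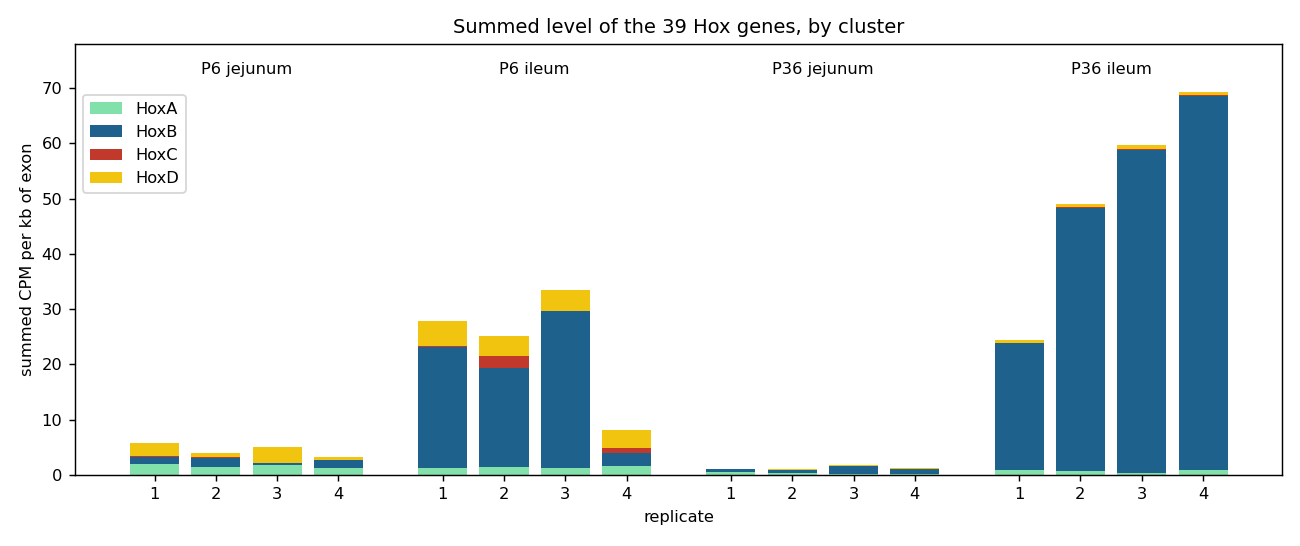
Stacked bars show the summed CPM per kb of exon of the 39 Hox genes in each of the 16 libraries, coloured by cluster and ordered by group and replicate. HoxB (blue) fills most of the bar in every ileum library but P6 ileum replicate 4, and the jejunum bars stay at or below 5.81.

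Between the regions at P6, 8 of the 12 tested Hox genes passed the edgeR test at an adjusted p below 0.05, each higher in the ileum: Hoxb3 to Hoxb9 and Hoxd8. Over all 13429 tested genes, 25.9% were called, 14.8% higher in the ileum and 11.1% higher in the jejunum. At P36 again 8 Hox genes differed, Hoxb3 to Hoxb9 and Hoxd4, each higher in the ileum, where 16.1% of all genes were called, 7.8% in that direction. The groups of 4 libraries did not overlap for 7 of the 12 genes at P6 and for 8 at P36, beside 30.1% and 26.9% of all tested genes. All 16 calls also passed the fold minimum of the study's volcano plots (an absolute log2 fold change above 2), which 4.3% of genes passed towards the ileum at P6 and 1.55% at P36. Hoxb4, Hoxb5, Hoxb8, Hoxb9 and Hoxd8 reached the filter's level in ileum libraries alone, so that a gene of this kind entered the test by being higher there. Hoxb3, Hoxd3 and Hoxa2 reached it in 1, 2 and 3 jejunum libraries, fewer than a group of 4, so they too entered with ileum libraries. The counts and the median over the tested genes are therefore given as a description. The median log2 fold change of the 12 genes, ileum over jejunum, was 3.16 at P6 and 4.32 at P36, beside 0.05 and 0.04 over all tested genes. Setting Hoxb8 to its bound given below could not move the median at P6, since the bound also lies above it.

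Most regional calls lay in HoxB, where all 7 tested genes, Hoxb3 to Hoxb9, were called at both ages. The start regions of Hoxb4 and Hoxb8, which were called at both ages, are printed beside those of the HoxD genes Hoxd3 and Hoxd4, which were not called between the regions at P6, so that they can be compared. Each is the 250 bases before the start in the RefSeq table of the build GRCm38.p6, which held 7 of the 12 tested genes and left out Hoxb3, Hoxb5, Hoxb6, Hoxb7 and Hoxb9. Positions are chr11:96318017-96318266, plus strand for Hoxb4, chr11:96281655-96281904, plus strand for Hoxb8, chr2:74711743-74711992, plus strand for Hoxd3 and chr2:74721728-74721977, plus strand for Hoxd4. The annotated Hoxd3 row (chr2:74711993-74748271) spans Hoxd4 (chr2:74721978-74729159), so the Hoxd3 start printed here lies 5' of Hoxd4. Capitals mark TTTATG on either strand, a sequence bound by caudal-type (CDX) homeodomain proteins.
Hoxb4: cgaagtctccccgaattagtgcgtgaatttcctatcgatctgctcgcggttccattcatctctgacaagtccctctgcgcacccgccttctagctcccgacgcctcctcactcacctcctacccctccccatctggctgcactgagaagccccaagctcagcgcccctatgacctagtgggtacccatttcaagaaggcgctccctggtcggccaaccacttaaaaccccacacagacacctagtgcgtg
Hoxb8: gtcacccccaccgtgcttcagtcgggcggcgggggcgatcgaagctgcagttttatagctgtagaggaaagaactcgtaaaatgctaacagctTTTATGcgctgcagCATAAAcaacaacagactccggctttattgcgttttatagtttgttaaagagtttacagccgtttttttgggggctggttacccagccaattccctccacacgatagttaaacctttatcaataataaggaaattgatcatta
Hoxd3: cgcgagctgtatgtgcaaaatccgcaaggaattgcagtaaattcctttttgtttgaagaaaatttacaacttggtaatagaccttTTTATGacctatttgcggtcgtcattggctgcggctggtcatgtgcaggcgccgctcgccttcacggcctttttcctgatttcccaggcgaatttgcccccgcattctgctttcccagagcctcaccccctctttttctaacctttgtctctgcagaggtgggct
Hoxd4: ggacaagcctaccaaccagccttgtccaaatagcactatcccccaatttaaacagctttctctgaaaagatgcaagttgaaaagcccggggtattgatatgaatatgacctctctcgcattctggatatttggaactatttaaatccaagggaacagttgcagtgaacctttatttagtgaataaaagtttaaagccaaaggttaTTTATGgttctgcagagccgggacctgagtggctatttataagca
Hoxb8 held the motif 2 times within these bases, Hoxd3 and Hoxd4 1 time each, and Hoxb4 did not hold it. Among all 32851 promoters of the table, 10.8% held it, as did 5 of the 24 Hox promoters. TGATTNAT, a joint site of HOX proteins and their cofactors, stood in 2.82% of all promoters and in none of these 4. Such matches are descriptions of letters and do not show binding.

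Hoxb9, a thoracic-level gene and the most 5' of the called members, had the smallest adjusted p of the 12 at P36. Its counts in the P6 jejunum were 0, 0, 0 and 2 for replicates 1 to 4, and in the P6 ileum 155, 103, 208 and 2. For the P36 jejunum they were 0, 1, 0 and 2, and in the P36 ileum 454, 881, 1767 and 860. At P6 3 of 4 ileum libraries, and at P36 all 4, lay far above every jejunum library, while P6 ileum replicate 4 equalled the highest jejunum count and its CPM (0.0980 against 0.0957) barely exceeded it. Since the jejunum held 2 counts at P6 and 3 at P36, the ratio of pooled CPM comes with a wide counting interval: it was 242 (95% exact conditional interval 66.7 to 2006) at P6 and 1463 (500.3 to 7098) at P36. The adjusted p was 0.000251 at P6 and 1.68e-05 at P36.

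Hoxb8, which in myeloid progenitors blocks differentiation when overexpressed, had 0 counts in all 4 P6 jejunum libraries and 1 count in the 4 P36 jejunum libraries together. In the P6 ileum its level was 2.42, 2.15, 3.14 and 0.294 CPM, and in the P36 ileum 3.81, 9.52, 10.9 and 11.5 CPM. At P6 it was at least 56.3-fold higher in the ileum, measured against 3 counts over the jejunum group (adjusted p = 0.000175). At P36 the pooled ratio was 720 with a counting interval of 129 to 28480 (adjusted p = 4.15e-05). Neither age had a jejunum library that reached an ileum library.

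Hoxb7, known in the mouse kidney from the nephric duct, and Hoxb6 were the HoxB members with the most reads in the jejunum. Hoxb7 measured 1.13, 0.937, 0.157 and 0.766 CPM in the P6 jejunum and 9.72, 7.78, 10.7 and 0.980 CPM in P6 ileum, so that replicate 4 of the ileum fell within the jejunum range. The ileum was 9.55-fold higher (log2 3.25 ± 0.66 SE, adjusted p = 0.0018). In P36 jejunum libraries Hoxb7 lay between 0.176 and 0.673 CPM, against 4.37, 11.0, 16.9 and 13.3 CPM in the ileum, a 30.8-fold difference (adjusted p = 0.000228). Hoxb6 measured 0.218, 0.580, 0.262 and 0.574 CPM in the P6 jejunum and 6.96, 6.24, 10.4 and 0.539 CPM in P6 ileum, with the same overlap by replicate 4, and 3 of 4 mice had more in their ileum. The fold was 14.5 at P6 (adjusted p = 0.000968) and 42.3 at P36 (adjusted p = 0.000148), when the jejunum lay between 0.0441 and 0.539 CPM and the ileum measured 7.68, 15.1, 14.9 and 24.9 CPM.

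Hoxb5, Hoxb4 and Hoxb3 lie 3' of these. Hoxb5, a gene of foregut mesoderm and enteric neural crest, measured at most 0.446 CPM in the P6 jejunum and 4.54, 3.53, 5.37 and 0.784 CPM in P6 ileum, 15.7-fold higher (adjusted p = 0.00115). At P36 it reached 0.449 CPM at most in the jejunum and 3.26, 5.04, 2.49 and 8.23 CPM in the ileum, 25.2-fold higher (adjusted p = 0.000701). Hoxb4, which expands blood stem cells when overexpressed, lay between 0.174 and 0.268 CPM in the P6 jejunum against 1.97, 1.98, 2.98 and 0.343 CPM in the ileum, a difference of 7.94-fold (adjusted p = 0.00217). Its P36 values were 0.0533 to 0.314 CPM and 1.93, 3.34, 1.18 and 3.96 CPM, or 15.9-fold (adjusted p = 0.000559). Hoxb3, which acts with Hoxa3 in the pharyngeal region, lay between 0.0957 and 0.714 CPM in the P6 jejunum and measured 7.60, 5.72, 9.05 and 1.32 CPM in P6 ileum, 15.8-fold higher (adjusted p = 0.000392). At P36 it measured 0.0449 to 0.213 CPM and 1.82, 5.10, 4.74 and 9.81 CPM, 37.1-fold higher (adjusted p = 0.000203). For these 3 genes no jejunum library reached an ileum library at either age, and replicate 4 was again the lowest P6 ileum library. Hoxb2 had 0 to 3 counts in a jejunum library and 1 to 14 in an ileum library and was not tested.

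**Figure D2:**
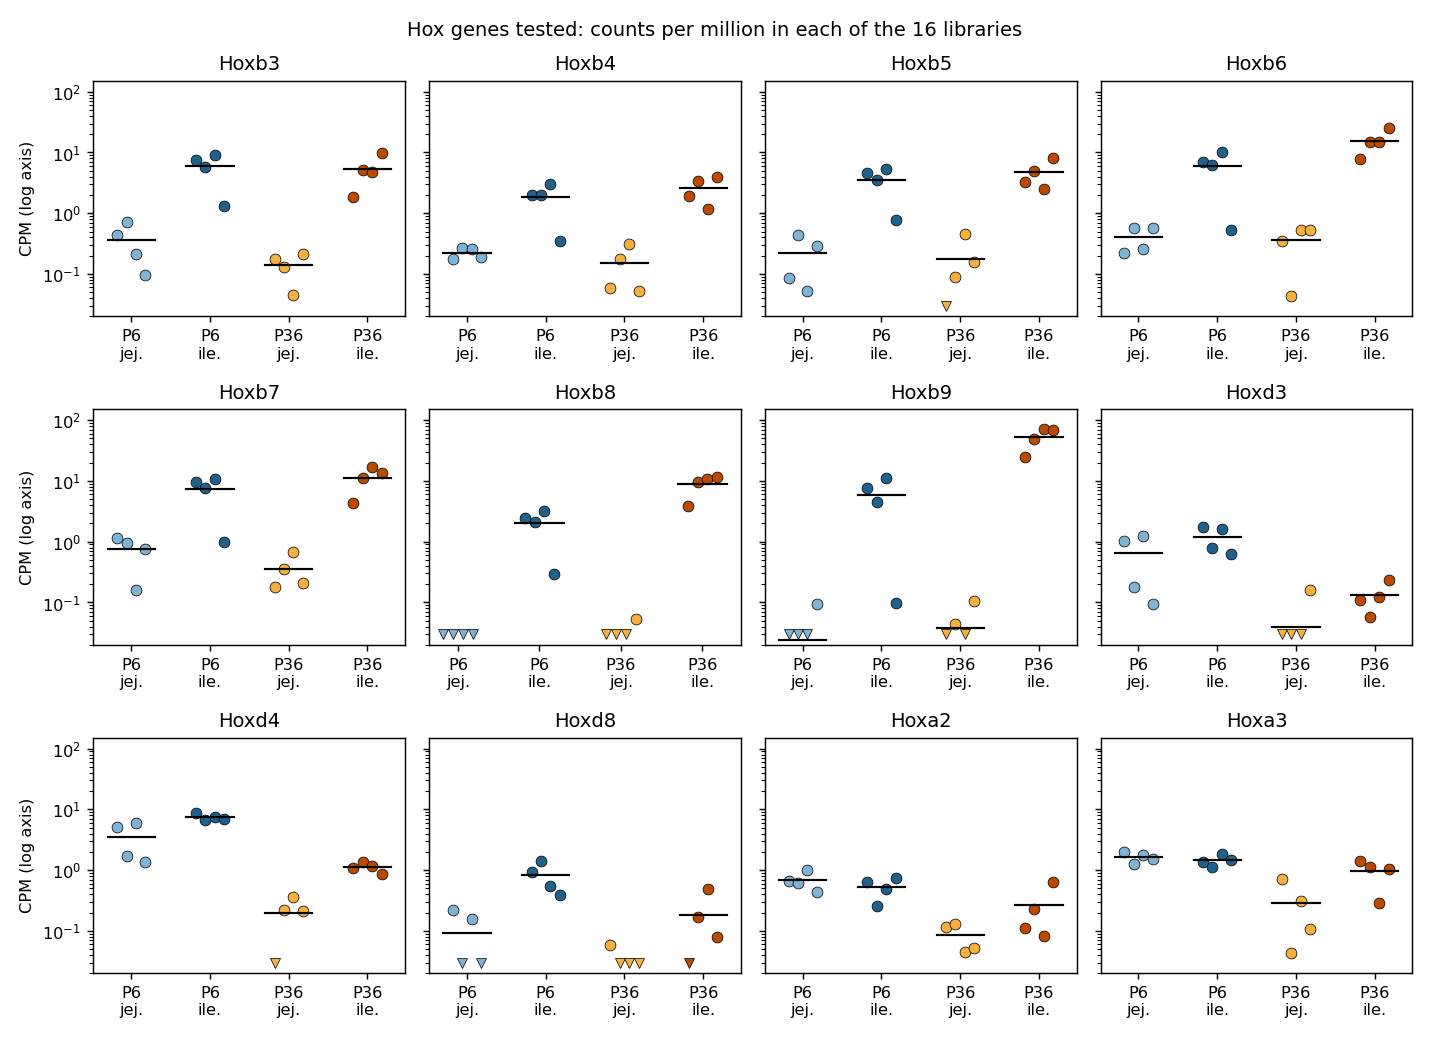
Each point is 1 library, with CPM on a log axis (triangles at 0.03 CPM stand for 0 counts) and a bar for the mean of each group of 4. Hoxb3 to Hoxb9 are high in both ileum groups apart from 1 low P6 point, replicate 4, while Hoxd3, Hoxd4, Hoxa2 and Hoxa3 are lower at P36 than at P6 in the jejunum.

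The HoxB results did not rest on the library with muscle genes. In P6 ileum replicate 2, the ratio to the median of the other 3 P6 ileum libraries was 0.753 for Hoxb3, 1.00 for Hoxb4, 0.777 for Hoxb5, 0.896 for Hoxb6, 0.801 for Hoxb7, 0.889 for Hoxb8 and 0.579 for Hoxb9. Without it, the 7 genes kept adjusted p-values between 0.000494 and 0.00497, and the folds of Hoxb3 to Hoxb7 lay between 7.70 and 16.0. In replicate 4 the same ratios were 0.174, 0.173, 0.173, 0.0775, 0.101, 0.122 and 0.0128. Among the other tested Hox genes, Hoxd3 was at 0.392 and Hoxd8 at 0.418, whereas Hoxd4 was at 0.917, Hoxa3 at 1.06 and Hoxa2 at 1.51. Hoxd4 and Hoxa3 share GC class 4 with Hoxb3, Hoxb4, Hoxb5, Hoxb6, Hoxb8 and Hoxb9. Hoxd3 and Hoxd8 lie in class 5, the class lowest in this library, and Hoxb7 and Hoxa2 in class 3. The part of GC content in the low HoxB and HoxD values was not tested. Without replicate 4, the P6 folds of Hoxb3 to Hoxb7 lay between 10.1 for Hoxb4 and 19.8 for Hoxb3, and all 7 HoxB genes remained called with replicates 2 and 4 both left out (largest adjusted p = 0.000317, for Hoxb4).

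**Figure D3:**
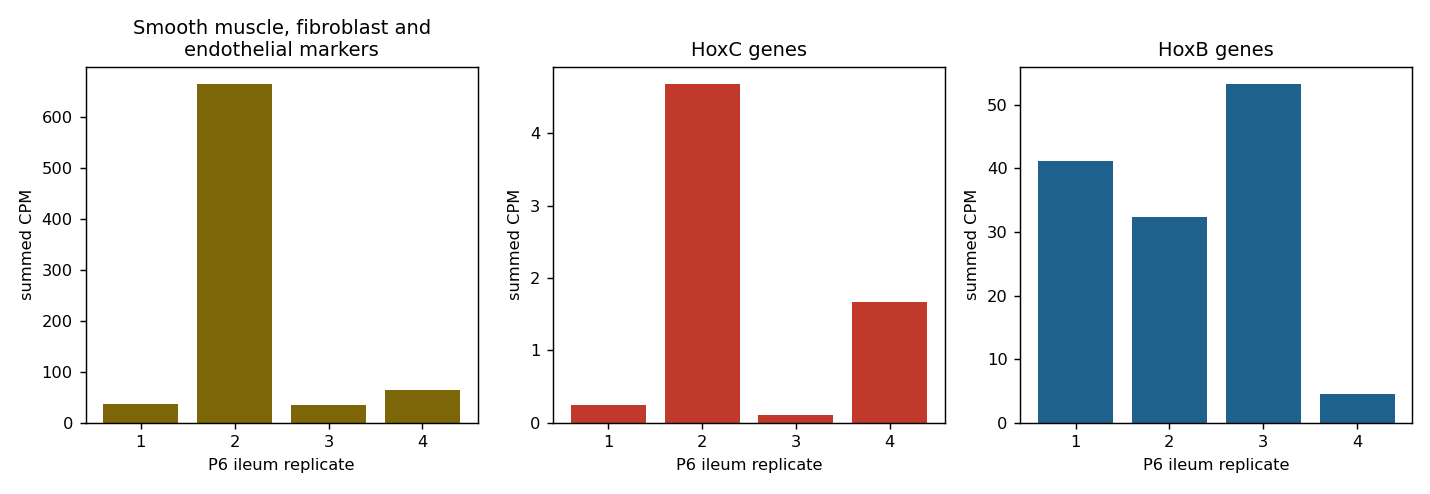
Bars give summed CPM in the 4 P6 ileum libraries for the smooth muscle, fibroblast and endothelial markers together, for the HoxC genes and for the HoxB genes. The markers stand at 666 CPM in replicate 2 against 34.5 to 64.2 in the others, HoxC at 4.69 there against 0.108 to 1.67, and HoxB at 41.1, 32.4, 53.3 and 4.51 in replicates 1 to 4.

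Along HoxB the level did not rise evenly towards the 5' end. Per kb, the P6 ileum held most of Hoxb7 (5.74 ± 3.45, SD), followed by Hoxb6 (4.55 ± 3.08), Hoxb9 (2.17 ± 1.76), Hoxb5 (1.87 ± 1.05), Hoxb3 (1.59 ± 0.902), Hoxb8 (0.757 ± 0.459) and Hoxb4 (0.709 ± 0.426), and the ranges of all neighbours in this order overlapped. Hoxd4, at 2.95 ± 0.376, stood between Hoxb6 and Hoxb9. In the P36 ileum Hoxb9 came first (19.9 ± 7.94), then Hoxb6 (11.8 ± 5.35), Hoxb7 (8.97 ± 4.15), Hoxb8 (3.38 ± 1.33), Hoxb5 (2.51 ± 1.34), Hoxb3 (1.44 ± 0.888) and Hoxb4 (1.02 ± 0.495), again with overlapping neighbours. Hoxb9 supplied 9.20% of the ileal Hox sum at P6 and 39.4% at P36. Within a library, the ratio of Hoxb9 to Hoxb7 per kb was 0.370, 0.268, 0.496 and 0.047 in the P6 ileum and 2.70, 2.14, 2.01 and 2.41 in P36 ileum, so the ages did not overlap in a measure that does not depend on library scaling. Hoxb8 over Hoxb7 lay between 0.119 and 0.144 at P6 and between 0.310 and 0.419 at P36. Both ratios were chosen after the values were seen and carry no test.

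**Figure D4:**
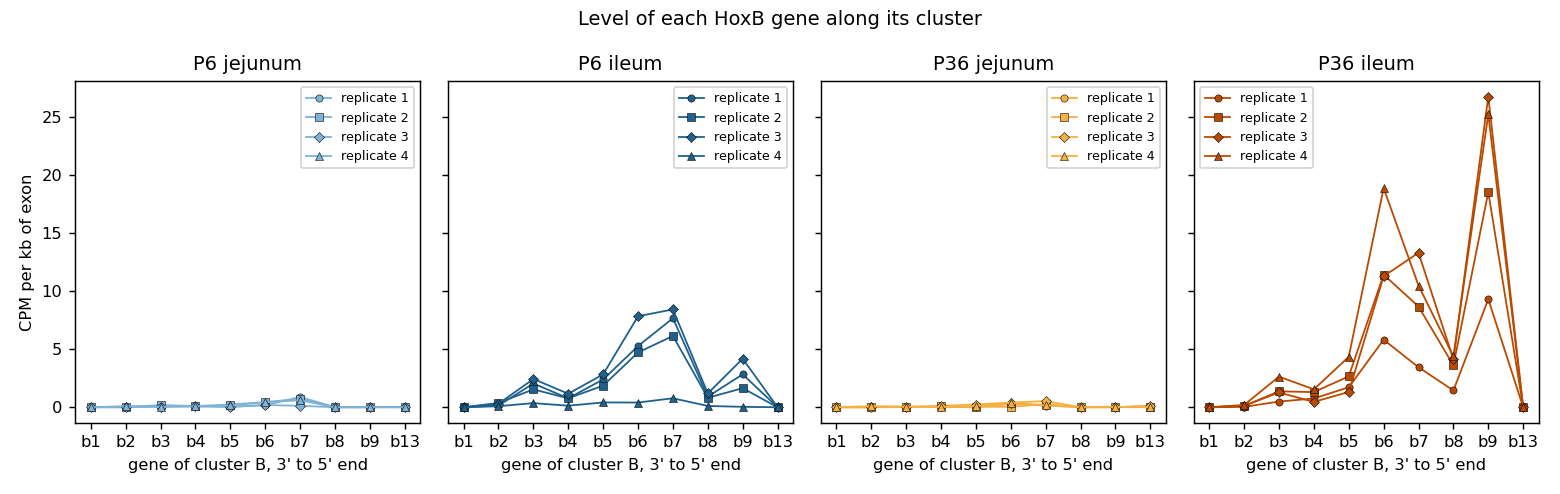
Lines join the CPM per kb of exon of the 10 HoxB genes in 1 library, with genes ordered from Hoxb1 at the 3' end to Hoxb13 at the 5' end and 1 panel per group. In the P6 ileum the highest point of every line is Hoxb7, in the P36 ileum it is Hoxb9, and Hoxb1 and Hoxb13 lie near 0 throughout.

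Other annotated transcripts lie between the HoxB genes. Gm53 (chr11:96251660-96264484, mm10, plus strand) and the row of the microRNA gene Mir196a-1 (chr11:96265164-96265265) are next to Hoxb9, and were named after their values were seen. Both had 0 counts in the 8 jejunum libraries. Gm53 measured 2.22, 0.817, 3.47 and 0 CPM in the P6 ileum and 5.53, 11.2, 15.8 and 15.9 CPM in P36 ileum (adjusted p = 0.00827 and 0.0014 between the regions). Mir196a-1 had 23 counts in the P6 ileum and 138 in P36 ileum (adjusted p = 0.0227 and 0.00196). Replicate 4 of the P6 ileum was at 0 for both, as it was nearly so for Hoxb9. These are reads of polyadenylated RNA over the gene of the microRNA and do not measure the mature form. The mature sequence is shown because miR-196a is known to pair almost fully with Hoxb8 mRNA and to direct its cleavage. In the RefSeq table (GRCm38.p6, chr11:96265187-96265208, plus strand) it reads as follows, with the seed (bases 2 to 8) in capitals, above the best ungapped match in an annotated Hoxb8 transcript, at bases 2208 to 2229 of 2635, where capitals mark the bases paired with the seed.
mmu-miR-196a-5p: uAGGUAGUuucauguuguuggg
Hoxb8 transcript: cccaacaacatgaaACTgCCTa
Of the 22 positions, 21 were Watson-Crick pairs and 1 was a G:U pair. The G:U pair lay within the seed. The best match in any transcript of the other 11 tested Hox genes had 15 pairs, in Hoxd8. A full match to the seed stood in transcripts of Hoxb6 and Hoxb7 and at another place in the Hoxb8 transcript, and in no Hoxd8 transcript. The remaining 16 annotated rows inside the 4 clusters had 0 to 21 counts in total, among them Mir10a with 10 counts in the P6 ileum, 3 in the P36 ileum and 0 in the jejunum, and Hotairm1 with 12 counts in the P6 jejunum and 2 in P6 ileum.

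Among the HoxD genes, Hoxd4 was called between the regions at P36 and Hoxd8 at P6. Hoxd4, a gene of the cervical axis, measured 5.10, 1.69, 6.04 and 1.34 CPM in the P6 jejunum and 8.88, 6.71, 7.64 and 7.01 CPM in P6 ileum. All 4 mice had more in the ileum and the groups did not overlap, yet the 2.13-fold difference had an adjusted p of 0.0895. With the mouse as a block it was 0.045, which passes, as it did without P6 jejunum replicate 3 (0.0429). At P36 Hoxd4 measured 0, 0.221, 0.359 and 0.213 CPM in the jejunum and 1.11, 1.36, 1.18 and 0.870 CPM in the ileum, 5.38-fold higher there (log2 2.43 ± 0.59 SE, adjusted p = 0.0105). Hoxd3, whose annotated row spans Hoxd4, measured 1.05, 0.178, 1.26 and 0.0957 CPM in the P6 jejunum and 1.73, 0.774, 1.63 and 0.637 CPM in P6 ileum (adjusted p = 0.388), and had 0 to 3 counts in any P36 library. Hoxd8 had 5, 0, 3 and 0 counts in the P6 jejunum and 19, 33, 10 and 8 in the P6 ileum, 8.35-fold higher in the ileum (adjusted p = 0.0197). Its highest library was replicate 2, the one with muscle genes, without which the fold was 6.31 and the adjusted p 0.0515. Without replicate 4 they were 9.77 and 0.0127, and without both 7.61 and 0.0430. Leaving out P6 jejunum replicate 2 or 4 also ended the call (adjusted p = 0.0609 and 0.0619). At P36 it had 1 count in the jejunum and 16 in the ileum, 12 of them in replicate 3 (adjusted p = 0.0967, or 0.0421 without P36 ileum replicate 1).

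No HoxA gene was called between the regions. Hoxa3, required for the thymus and parathyroid, measured 2.01, 1.25, 1.78 and 1.53 CPM in the P6 jejunum and 1.38, 1.12, 1.84 and 1.47 CPM in P6 ileum, with 1 of 4 mice higher in the ileum (ratio of pooled CPM, ileum over jejunum, 0.873, counting interval 0.677 to 1.12, adjusted p = 0.834). At P36 it measured 0.706, 0.0441, 0.314 and 0.107 CPM against 1.44, 1.13, 0.286 and 1.03 CPM, with 3 of 4 mice higher in the ileum and an adjusted p of 0.0626. This value passed the threshold without P36 jejunum replicate 1 (0.0141), P36 ileum replicate 3 (0.0258) or P6 ileum replicate 4 (0.0463), and with DESeq2 (0.0176). Hoxa2, the selector gene of the second pharyngeal arch, had 9 to 19 counts in a P6 jejunum library and 6 to 15 in a P6 ileum library (adjusted p = 0.655). At P36 it had 1 to 3 and 2 to 8 counts (adjusted p = 0.196). Hoxa4 was not tested, with 9 to 27 counts in a P6 jejunum library, 5 to 14 in a P6 ileum library and 0 to 9 in a P36 library.

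**Figure D5:**
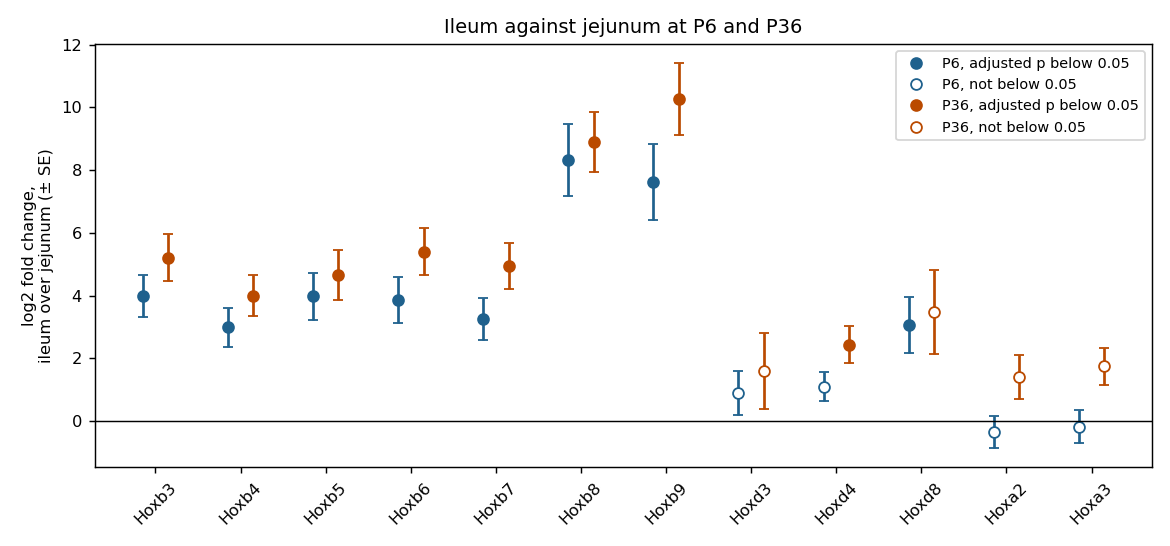
Points give the log2 fold change of ileum over jejunum from the edgeR fit, with SE bars, at P6 (blue) and P36 (orange), filled where the adjusted p was below 0.05. Hoxb3 to Hoxb9 are filled at both ages, and the heights of Hoxb8 and Hoxb9 depend on the prior count because the jejunum held 0 to 3 counts.

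HoxC transcripts came mainly from 2 libraries. P6 ileum replicate 2 held 109 HoxC counts, replicate 4 held 34, and all 15 libraries other than replicate 2 held 73 together. Hoxc8, a gene of thoracic and lumbar levels, had 58 counts in replicate 2 and at most 7 in any other library. Hoxc6 had 27 there and 12 in replicate 4, Hoxc5 had 10 and at most 1 elsewhere, Hoxc9 had 7 there and 4 in replicate 4, and Hoxc4 had 6. From HoxA, Hoxa5 (18 counts, at most 4 elsewhere) and Hoxa7 (7 counts, at most 1 elsewhere) were also highest in replicate 2, as were Hoxb2 (14 counts) and Hoxd8 (33 counts). These 9 of the 21 Hox genes with 5 or more counts in that library were picked as those with their highest CPM of the 16 libraries there. Hoxc10 had 8 counts in replicate 4 and 1 in replicate 2. The choice of the 9 genes and the smooth muscle, fibroblast and endothelial markers rest on the same 1 library, and a link between them was not tested. The share of these transcripts from muscle, fibroblasts or endothelium was not tested either. Fitted without the filter, Hoxc8 was called higher in the P6 ileum than in the P6 jejunum (adjusted p = 0.0157), a comparison in which replicate 2 held 58 counts and the other P6 ileum libraries 1 to 7.

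Between the ages, Hoxd3 and Hoxd4 were lower at P36 in both regions, and Hoxb8 and Hoxb9 were higher at P36 in the ileum. In the jejunum 4 of 12 genes differed, Hoxa2, Hoxa3, Hoxd3 and Hoxd4, each lower at P36. Of all tested genes, 51.6% were called in this comparison, with 26.9% higher at P6. The share of Hox genes called in either direction was thus not above that of all genes. On the log2 scale, Hoxd4 fell by 4.06 (± 0.58 SE, adjusted p = 2.37e-05), Hoxd3 fell by 3.88 (± 1.02, adjusted p = 0.00461), Hoxa2 fell by 2.87 (± 0.63, adjusted p = 0.00118) and Hoxa3 fell by 2.51 (± 0.59, adjusted p = 0.0022). The ages did not overlap for Hoxd4, Hoxa2 and Hoxa3, which 63.8% of all tested genes also showed, and overlapped for Hoxd3, of which P6 replicates 2 and 4 held 4 and 2 counts. In the ileum 5 of 12 genes passed the test, beside 55.7% of all tested genes, so again not a larger share. Hoxb9 was 9.19-fold higher at P36 (log2 3.20 ± 0.70, adjusted p = 0.00106) and Hoxb8 4.46-fold higher (log2 2.16 ± 0.56, adjusted p = 0.00539), where 25.5% of all genes were called higher at P36. On the log2 scale, Hoxd4 fell by 2.73 (± 0.49, adjusted p = 0.000229), Hoxd3 fell by 3.18 (± 0.86, adjusted p = 0.00523) and Hoxd8 fell by 2.00 (± 0.83), where 30.1% of genes were called higher at P6. The ages overlapped for Hoxd8 and did not for the other 4 genes, as for 44.4% of all tested genes. The adjusted p of Hoxd8, 0.05 when rounded and just under the threshold, passed it in 4 of 24 alternatives and was 0.110 without P6 ileum replicates 2 and 4. Without P6 ileum replicate 4 the rise of Hoxb9 was 6.94-fold and that of Hoxb8 3.48-fold, and with replicate 2 left out as well they were 5.70-fold and 3.22-fold, all past the threshold. With both left out, Hoxd4 fell by 2.85 on the log2 scale (adjusted p = 0.00059) and Hoxd3 fell by 3.67 (adjusted p = 0.00369). Hoxb6 was 2.59-fold higher at P36 with an adjusted p of 0.0608, which passed without P6 ileum replicate 3 (0.0313) or 4 (0.0480) and without P36 ileum replicate 1 (0.0409). Hoxa2 had a log2 fold change in the ileum of -1.12 with an adjusted p of 0.108, and of -1.91 without P36 ileum replicate 4 (0.0107). Hoxb3, Hoxb4, Hoxb5 and Hoxb7 had folds between 1.11 and 1.56 (adjusted p from 0.358 to 0.837). All comparisons with age set different mice against each other, and they share their libraries with the regional comparisons. Markers of other cell types also differed between the ages. In the jejunum at P6 and P36, smooth muscle markers summed to 5.31 to 6.35 and 0.529 to 0.853 CPM. Enteric neuron and glia markers summed to 110 to 141 and 3.71 to 8.98 CPM, and myeloid markers to 430 to 502 and 27.3 to 46.9 CPM. Endothelial markers fell too, B and plasma cell markers rose, and fibroblast and T cell markers overlapped. The part of cell mix in the age differences was not tested.

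No Hox gene passed the test of whether the regional difference itself changed with age (edgeR, adjusted p below 0.05). This was 0 of 12 genes, and 0 of 12 with DESeq2, beside 8.69% of all tested genes. With so few genes, 0 of 12 lies near that share and does not show that the regional differences were constant. The smallest adjusted p was 0.160, for Hoxa3, the single gene with an unadjusted p below 0.05, and without P36 jejunum replicate 1 it was 0.0442. All 12 estimates had the same sign, with the ileum over jejunum difference larger at P36, from 0.41 for Hoxd8 to 2.65 ± 3.46 (SE) for Hoxb9 on the log2 scale, of which the latter depends on the prior count. Over the alternatives the estimate of Hoxd8 ranged from -0.82 to 2.02, so that its sign turned. Calls at P6 only, as for Hoxd8, or at P36 only, as for Hoxd4, are therefore not shown to differ between the ages.

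The genes that act with or on Hox proteins were described from 4 lists. Among the TALE cofactors, homeodomain proteins that bind DNA with Hox proteins, 7 of 9 were tested. Meis3 measured 6.93 to 9.90 CPM in the P6 jejunum and 22.4, 25.0, 22.0 and 4.80 CPM in P6 ileum, with an adjusted p of 0.0411 that was lost in 13 of 26 alternatives, among them the mouse as a block (0.1135). Meis2 was higher in the P36 jejunum, with 1.88 to 4.71 against 0.122 to 0.940 CPM (adjusted p = 0.0288). That call was lost in 5 of 25 alternatives, namely without P36 ileum replicate 2 (adjusted p = 0.0724), 3 (0.0862) or 4 (0.0839) and without P36 jejunum replicate 1 (0.0990) or 4 (0.0521).

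Of the ParaHox and cluster-flanking genes, 2 of 8 were tested and none was called between the regions. Cdx1 measured 121 to 132 CPM in the P6 jejunum and 121, 141, 137 and 31.8 CPM in the P6 ileum (adjusted p = 0.634). At P36 it lay between 122 and 142 CPM in the jejunum and between 219.5 and 263 CPM in the ileum (1.86-fold, adjusted p = 0.0528). Cdx2 lay between 122 and 244 CPM in all groups (adjusted p = 0.856 and 0.297). Pdx1, the gene of pancreas and duodenum, had 33 counts in the P6 jejunum, 3 in the P6 ileum, 6 in the P36 jejunum and 0 in P36 ileum. Retinoic acid activates 3' Hox genes in the embryo, and of 17 genes for its synthesis, breakdown and receptors 10 were tested. At P6 Dhrs3 and Aldh1a1 were higher in the jejunum and Aldh1a2 in the ileum, and at P36 Dhrs3 and Rdh10 were higher in the jejunum and the receptor gene Rarg in the ileum (2.69-fold, adjusted p = 0.0122). The call of Aldh1a2 was lost in 17 of 26 alternatives, among them without P6 ileum replicate 2 (adjusted p = 0.217) and with the mouse as a block (0.0690). That of Aldh1a1 was lost in 6 of 26, among them without P6 ileum replicate 2 (0.0729), without replicate 4 (0.0523) and without both (0.188). The call of Dhrs3 at P36 was lost in 8 of 25, among them with library totals alone (0.183) and with no filter (0.0593), and leaving out any of P36 ileum replicates 1, 2 and 4 or P36 jejunum replicates 2, 3 and 4 also ended it (0.0609 to 0.0875). Dhrs3 at P6 and Rdh10 kept their calls in all alternatives run. All 24 Polycomb and Trithorax genes, which keep Hox clusters silent or active, were tested. Kdm6b and Cbx8 were higher in the jejunum and Phc1 in the ileum at P6, and Jarid2 was higher in the ileum at P36 (1.37-fold, adjusted p = 0.0174). The calls of Rarg and Phc1 held in all alternatives run, and those of Cbx8, Kdm6b and Jarid2 were lost in 8, 4 and 4 of them.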

How the data were processed

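Epithelium from the jejunum and the ileum of 8 mice gave 16 stranded mRNA libraries, 4 in each of 4 groups. Before depositing, the authors used Trimmomatic 0.38 for adapters, STAR for alignment to mm10 and featureCounts (Subread 1.6.3) for counts per gene. The submitters' processing notes give STAR as 2.5.3, which differs from the version in the study's methods. The deposited values are raw counts per gene, not normalized, 1 file per library, and 0 columns were left unmapped. The segment taken is given as different lengths in the labels and in the study's methods.

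Genes were filtered with filterByExpr on the 4 groups, TMM factors were applied, and edgeR 4.0.16 (R 4.3.3) supplied the quasi-likelihood test, all 16 libraries in 1 fit, with Benjamini-Hochberg adjustment over 13429 genes and a threshold of 0.05. The SE is the absolute log2 fold change over the square root of F. The code was tested on simulated data. Where a group held 0 counts, the bound uses 3 counts over the group. Ratios at 1 to 3 counts carry exact 95% intervals that cover counting error only. DESeq2 1.42.0, RLE factors, library totals, other filters, sex, a robust prior, single libraries left out and the mouse as a block were alternatives. Leaving out P6 ileum replicates 2 and 4 together was added after the data were seen.

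Jejunum and ileum came from the same mouse. Deviations from the group means correlated between regions of 1 mouse at 0.155 to 0.413 at P6 and 0.300 to 0.425 at P36. Between regions of different mice the values were -0.319 to 0.149 at P6 and -0.385 to 0.227 at P36. The main fit did not use the pairing, and the block did. All Hox genes were members, values per library are given for tested genes called in any comparison, and up to 4 called genes were named from each related list. The members and lists were chosen with earlier results of these data known. GC content was available for 12948 of 13429 genes, and 22 of 39 Hox genes had a promoter in the RefSeq table. Some genes of the lists are not reported here.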

Additional observations from a re-analysis of the deposited data

Results flagged for a closer look

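Among 67 groups of 4 libraries examined for 1 library far from the other 3, of which chance alone gives about 1 in 20, a pair was found, both in the P6 ileum and both highest in replicate 2, the library with smooth muscle, fibroblast and endothelial markers. Hoxc8 measured 2.49 CPM there against 0.343 CPM in the next library, a gap of 0.880 of the range of the group, which lies above Dixon's critical value. Hoxc5 measured 0.430 CPM against 0.049 CPM, a gap of 0.886 of the range. The part of stromal cells in these values was not tested.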

How the results depend on the processing

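Over 1470 combinations of a Hox gene, a comparison and an alternative, 1430 stayed on their side of the threshold, 23 lost the call, 17 gained one and 0 called values changed sign. Estimates that were not called could turn sign, as that of Hoxa3 did between the regions at P6 (log2 -0.11 to 0.30, jejunum over ileum). With only the compared libraries in the fit, 4 Hox genes were called between the regions at P6, because Hoxb4, Hoxb8, Hoxb9 and Hoxd8 then failed the filter. With a mean of at least 1 CPM required, the age comparisons called 2 genes (jejunum) and 3 (ileum), since fewer genes were tested. Leaving out single libraries gave 7 to 9 calls between the regions at P6, 8 to 9 at P36, 4 to 5 between the ages of the jejunum, 4 to 6 for the ileum and 0 to 1 for the change of the regional difference with age. Detected genes were 2 to 4 in the P6 jejunum (4 without replicate 3), 7 to 11 in the P6 ileum (11 without replicate 4), 0 to 0 in P36 jejunum and 8 to 9 in P36 ileum. At 0.1 CPM they were 7 in the P6 jejunum, 13 in P6 ileum and 1 in P36 jejunum, and at 1 CPM 3 in the P6 ileum. The summed level without single libraries was 4.11 to 4.96, 20.3 to 28.8, 1.10 to 1.36 and 44.4 to 59.3 CPM per kb in the P6 jejunum, P6 ileum, P36 jejunum and P36 ileum. Without division by length it was 9.64, 47.0, 2.26 and 106 CPM. In the P36 jejunum most members lay near or below the level of 3 counts, so differences among them were not detectable at this depth.

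With the mouse as a replicate block, 9 Hox genes were called between the regions at P6, 8 at P36 and 0 for the interaction. The block added Hoxd4 at P6 and changed no other call of a Hox gene. Outside the Hox genes, the P6 calls of Meis3 and Aldh1a2 were lost with the block (adjusted p = 0.1135 and 0.0690).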

Other observations

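Ileum libraries of 1 age differed in genes that mark position along the small intestine, and the summed HoxB level is set beside them as a description, with genes chosen after their values were seen. Gata4, a transcription factor of the duodenum and jejunum, measured 8.98, 18.4, 3.25 and 34.7 CPM in P6 ileum replicates 1 to 4, where Hoxb3 to Hoxb9 summed to 40.9, 31.8, 52.9 and 4.36 CPM. The library with the most Gata4 thus held the least HoxB and the library with the least Gata4 the most. The former was replicate 4, the library that differed with the GC content of genes, and the part of GC content in its values was not tested. Lct, which encodes lactase, measured 508, 666, 367 and 1244 CPM in the same order, and Fabp6, an ileal bile acid binding protein, 58.2, 10.8, 74.3 and 6.13 CPM. Cldn8 lay between 179 and 200 CPM in all 4. In the P36 ileum Gata4 measured 31.6, 5.55, 0.735 and 2.29 CPM and the HoxB sum 48.0, 99.0, 123 and 139.8 CPM. Here too the library with the most Gata4, replicate 1, held the least HoxB, but the library with the least Gata4 was not the one with the most HoxB. Fabp6 measured 9112, 6644, 3725 and 7680 CPM in these libraries, so that the one with the least HoxB had the most Fabp6, unlike at P6. With 4 libraries an age, no correlation was tested.

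In the P6 jejunum, Hoxd4 and Hoxd3 were high in replicates 1 and 3 (Hoxd4 at 5.10 and 6.04 CPM) and low in replicates 2 and 4 (1.69 and 1.34 CPM). The labels give these mice 2 different ID prefixes, L41800 for the high pair and L42150 for the low pair, and do not say what a prefix stands for. Cd14 split the same way, at 15.4 and 12.5 CPM against 0.669 and 0.622 CPM. Hoxa4, which missed the filter, was called lower at P36 than at P6 in the jejunum when no filter was used (adjusted p = 0.0186, edgeR). It was also called with only the compared libraries in the fit (0.0157). Many of the fits without a single library called it too (adjusted p from 0.00113 to 0.0408).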
